A study of Mus musculus with 24 samples.

Results

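Hand1, Gata2, Gata3, Tfap2a, Tfap2c, Elf5, Ascl2 and Tead4 encode transcription factors of the trophectoderm and of the trophoblast that forms from it. They were followed by gene symbol through 24 RNA-seq libraries of mouse embryonic stem cells (mESCs), and all 8 had a row in each count file, among 22609 gene symbols in all. Tfap2a and Tfap2c stood there under the older symbols Tcfap2a and Tcfap2c. Hairpins in this study targeted Med12 and Cdk8, which encode parts of the Mediator kinase module, or Rnf2, the gene of the Polycomb protein Ring1b. In every group the cells were E14TG2a, an established embryonic stem cell line of strain 129/Ola, and each of the 8 groups held 3 libraries. The mESC groups grew without feeders in serum and LIF: untransfected cells, cells with the control hairpin shNMC, and cells with shMed12, shCdk8 or shRing1b. The RA groups were shNMC, shMed12 and shCdk8 cells kept for 24 h in 1e-06 M all-trans retinoic acid (RA) with LIF left out, so RA and the loss of LIF cannot be told apart. How many hairpins or clones stand behind each target, and whether replicates were separate cultures, is not in the labels, so p-values measure the spread between these libraries, which may be technical.

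The trophectoderm is the outer cell layer of the blastocyst, and its descendants build the fetal part of the placenta. Tead4 binds DNA and acts with the coactivators of the Hippo pathway at the start of this lineage, together with Gata3, Tfap2c and the homeobox factor Cdx2. Elf5 and Tfap2c belong to the set of factors that maintains trophoblast stem cells, while Gata2, Hand1 and Ascl2 act in trophoblast subtypes: Hand1 in giant cells and Ascl2 in the spongiotrophoblast. Embryonic stem cells are derived from the inner cell mass, where most of these genes are low, though Tead4, Tfap2c and Tfap2a are not restricted to trophoblast.

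Gene counts per library ranged from 27.4 to 34.1 M for untransfected and shRing1b cells (6 libraries) and from 37.8 to 57.3 M for the 18 others. Reads with several alignments made up 20.0% to 21.7% in those 6 and 44.1% to 49.1% in the 18. Each target hairpin was therefore compared with a control of its own set. For shRing1b that was untransfected cells, which carry no hairpin. There the fall of Rnf2 and the presence of a hairpin cannot be told apart. The spread behind the p-values still came from a fit over all 24 libraries, both sets together. Counts were scaled to CPM, the counts of a gene per M counts of the library, with TMM, which corrects for library composition, and 3 counts stood for 0.0464 to 0.120 CPM, depending on the library. Med12 fell with shMed12 by 1.68 on the log2 scale in mESCs and by 1.3 after RA, Cdk8 fell with shCdk8 by 2.06 and by 2.20, and Rnf2 fell with shRing1b by 1.27. The library labelled shRing1b replicate 3 showed little fall of Rnf2. Its level was 207 CPM, beside 52.4 and 64.2 CPM in the other 2 and 221, 303 and 262 CPM in untransfected cells. The shRing1b results are therefore given with and without this library. The 8 embryonic stem cell markers, Pou5f1 and Nanog among them, summed to 5662 to 5715 CPM in shNMC mESCs and 3249 to 3486 CPM with shMed12. After RA the sums were 2255 to 2705 CPM with shNMC, 1536 to 1658 CPM with shMed12 and 1594 to 1998 CPM with shCdk8. In bulk RNA, more cells of a type and more RNA per cell cannot be told apart.

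Levels were compared between the 8 genes per kb of exon, with exon lengths from GENCODE M21 on GRCm38, which is not the annotation of the deposited counts. In shNMC mESCs Tfap2c stood highest at 21.4 ± 2.3 CPM per kb (mean ± SD, n = 3), followed by Tead4 at 7.51 ± 0.78, Ascl2 at 1.70 ± 0.21 and Tfap2a at 0.699 ± 0.12 CPM per kb. Gata2 at 0.223 ± 0.057, Hand1 at 0.129 ± 0.053, Gata3 at 0.104 ± 0.040 and Elf5 at 0.0133 ± 0.0088 CPM per kb made up the low end. The ranges of Gata2, Hand1 and Gata3 overlapped with their neighbour in this order, and Elf5 lay below all 3. With shMed12 the order changed. Hand1 reached 8.48 ± 0.99 CPM per kb in mESCs, close to the 9.49 ± 0.62 of Tead4, and their ranges overlapped.

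**Figure D1:**
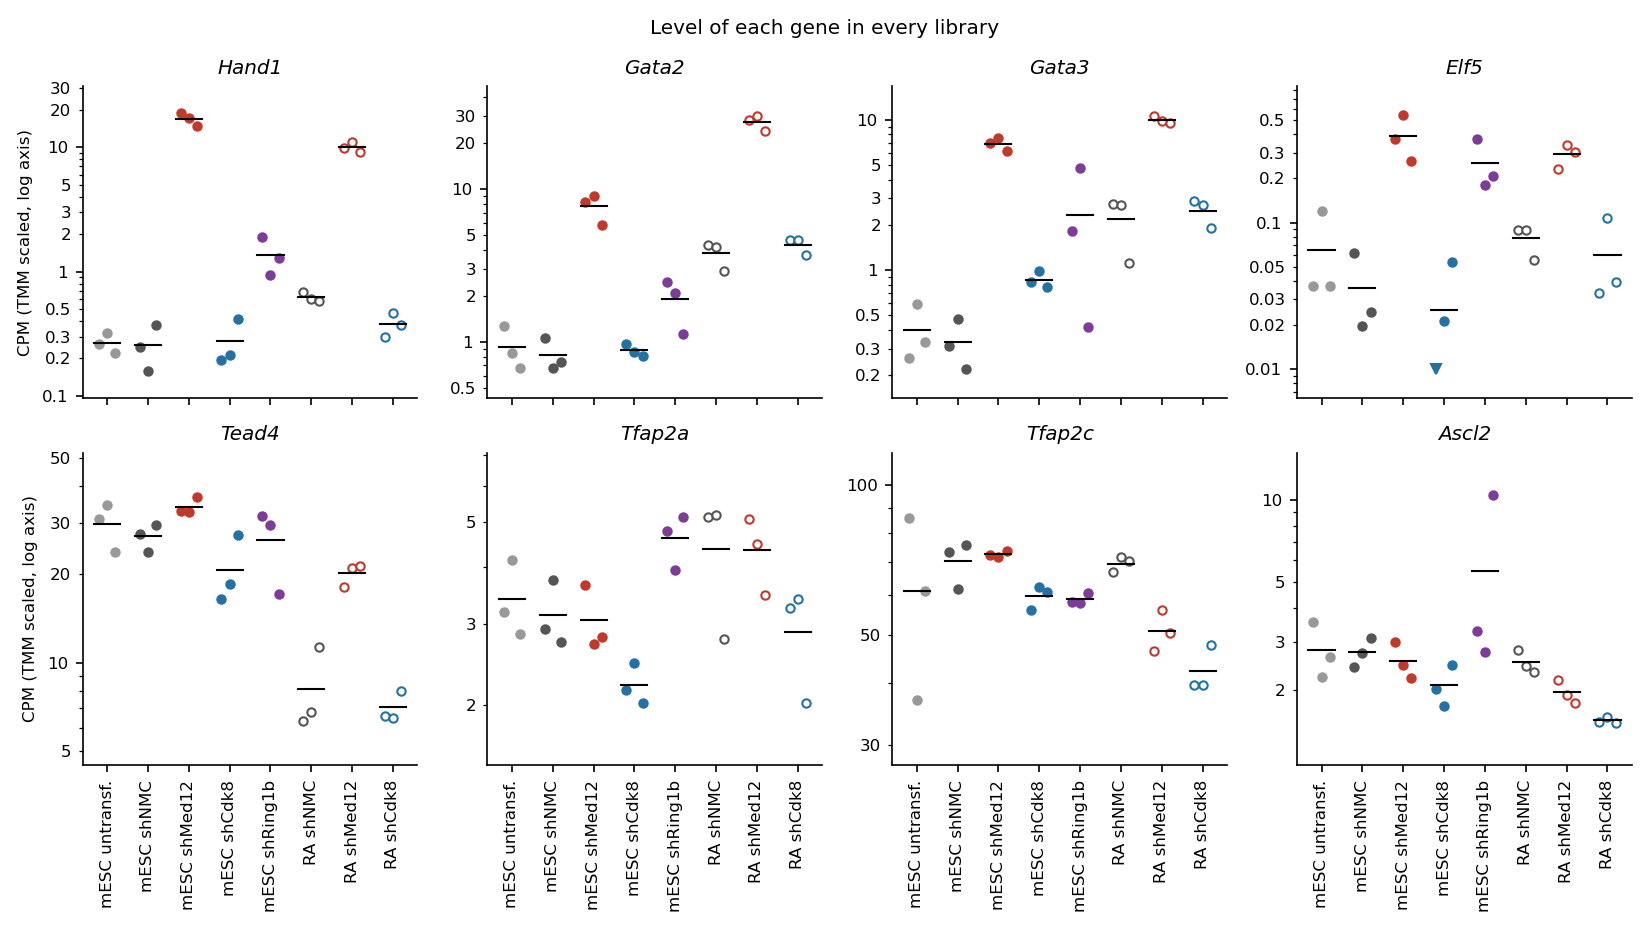
Level of each gene in every library, in TMM-scaled CPM on a log axis that differs between panels; points are libraries (filled for mESCs, open for RA), bars are group means, and the triangle marks an Elf5 count of 0, drawn at the foot of the panel. In the panels of Hand1, Gata2, Gata3, Elf5 and Tead4 the 3 shMed12 libraries lie above the 3 shNMC libraries in both states. In mESCs they overlap in the panels of Tfap2a, Tfap2c and Ascl2.

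The Med12 hairpin in mESCs went with higher Hand1, Gata2 and Gata3, and with no called change of Tead4, Tfap2a, Tfap2c or Ascl2. Hand1 rose most of these, from a mean of 0.258 to 16.9 CPM. Of the 7 members other than Elf5, 3 were called higher and 0 lower with edgeR at an adjusted p under 0.05. Among all 16280 genes tested, 20.6% were called higher and 19.9% lower. Elf5 is counted apart because it passed the filter on low counts through the groups where it is high.

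Hand1, a basic helix-loop-helix factor of trophoblast giant cells, stood at 0.249, 0.157 and 0.369 CPM in the 3 shNMC libraries and at 18.8, 17.1 and 14.9 CPM with shMed12. The lowest shMed12 library lay far above the highest shNMC library, and the untransfected libraries (0.260, 0.319 and 0.223 CPM) fell within the shNMC range. The log2 change was 6.05 (SE 0.30, edgeR adjusted p = 2.6e-12), and it ranged from 5.78 to 6.39 when 1 library was left out. It rests on 35 Hand1 counts in the shNMC group and 2220 with shMed12.

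Gata3, a zinc finger factor that acts at the start of the trophectoderm, stood at 0.311, 0.472 and 0.221 CPM with shNMC and at 6.99, 7.59 and 6.2 CPM with shMed12 (log2 change 4.34, SE 0.54, edgeR adjusted p = 1.29e-06). Its paralog in trophoblast, Gata2, stood at 1.06, 0.669 and 0.737 CPM with shNMC and at 8.24, 9.03 and 5.84 CPM with shMed12 (log2 change 3.22, SE 0.27, edgeR adjusted p = 3.92e-09). For neither gene did the groups overlap. The tighter shMed12 group was that of Gata3, while Gata2 varied more, with replicate 3 the lowest.

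Elf5, an ETS-domain factor of trophoblast stem cells, had the lowest mean level per kb of the 8 in every group. In counts it gave 3, 1 and 1 reads in the shNMC libraries and 16, 21 and 13 with shMed12, or 0.0623, 0.0197 and 0.0246 CPM against 0.369, 0.539 and 0.262 CPM. Each shNMC library was thus at or under 3 counts, and no shMed12 library was. Elf5 passed the filter on low counts through the shMed12 groups, so these counts are a description. A fit with no such filter gave a log2 change of 3.35 (edgeR adjusted p = 6.39e-05), a value that depends on edgeR's prior count at such low levels.

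Tead4 and the AP-2 factors were already expressed in control mESCs and did not follow this pattern. Tead4 stood at 27.5, 23.9 and 29.4 CPM with shNMC and at 33.0, 32.6 and 36.6 CPM with shMed12, without overlap. Its log2 change of 0.34 (SE 0.22) was not called in the fit over 24 libraries (edgeR adjusted p = 0.234), but it was called when only those 2 groups were fitted (0.35, edgeR adjusted p = 0.0069). Tfap2c, the AP-2 factor of trophoblast and germ cells, stood at 73.3, 61.8 and 75.7 CPM with shNMC and 72.5, 71.7 and 73.6 CPM with shMed12. Tfap2a, the AP-2 factor of surface ectoderm and neural crest, stood at 2.93, 3.74 and 2.75 CPM against 3.65, 2.72 and 2.82 CPM. Ascl2, which is imprinted and needed for the spongiotrophoblast, stood at 2.43, 2.73 and 3.10 CPM against 3.0, 2.46 and 2.22 CPM. In these last 3 genes the groups overlapped, with log2 changes of 0.05 (SE 0.17) for Tfap2c, -0.04 (SE 0.24) for Tfap2a and -0.10 (SE 0.33) for Ascl2.

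**Figure D2:**
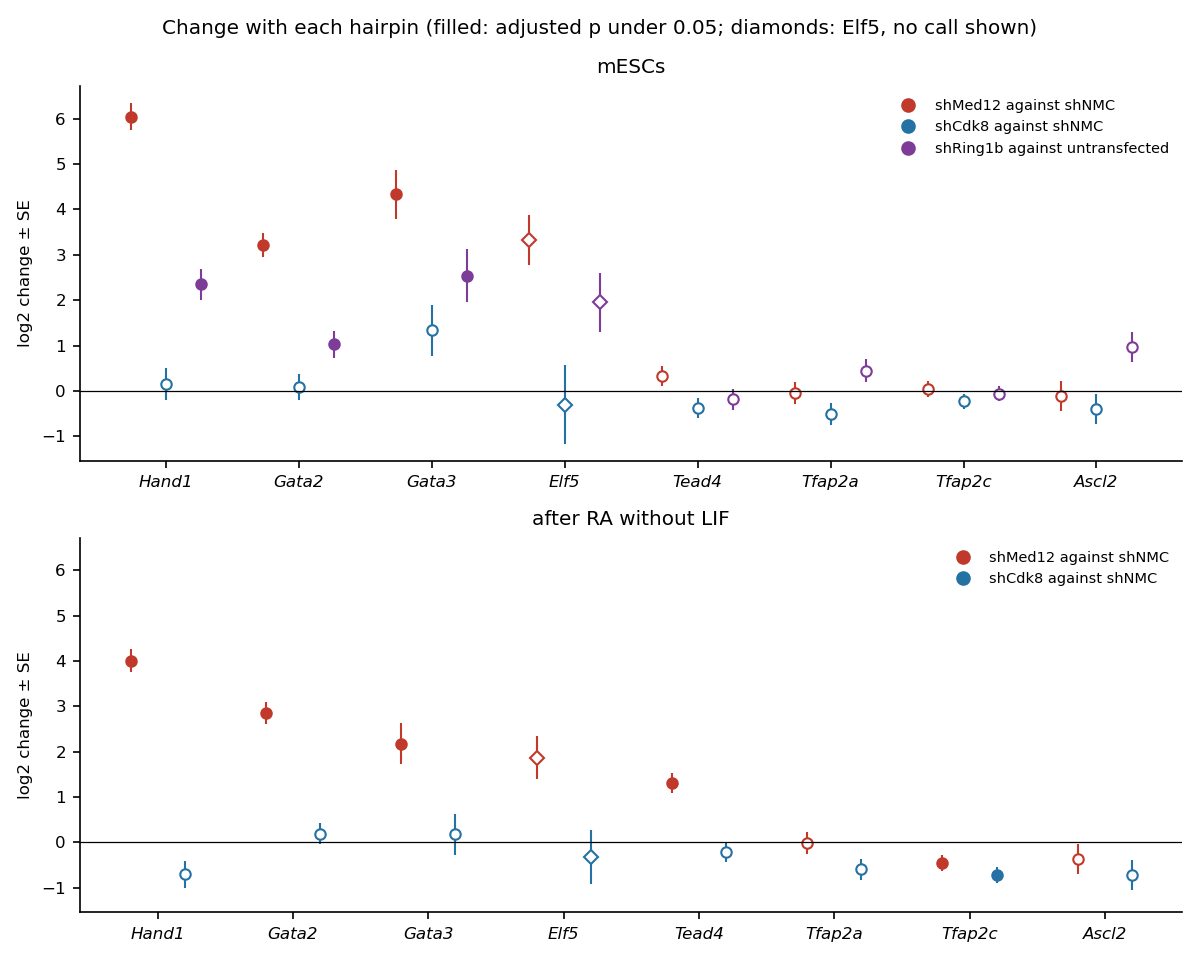
Log2 change with its standard error for each gene, by hairpin, in mESCs (top) and after RA without LIF (bottom); filled circles have an edgeR adjusted p under 0.05, and Elf5 is drawn as open diamonds with no call shown, because it entered the fit through the shMed12 groups. The shMed12 circles of Hand1, Gata2 and Gata3 are filled in both panels, from 6.05 for Hand1 in mESCs down to 2.18 for Gata3 after RA, and Tead4 is filled only after RA.

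Promoter windows of Gata2, Gata3 and Elf5 are shown here, because all 3 shMed12 libraries of each gene lay above all 3 shNMC libraries in both states. That choice rests on the levels and is a description. RefSeq windows (build GRCm38.p6) of the 250 bases before an annotated start were matched by symbol, and 5 of the 8 members had at least 1: Gata2, Gata3, Elf5, Ascl2 and Tfap2a. Hand1, Tfap2c and Tead4 had none in the table used. The windows were searched on both strands for 6 motifs: the TEAD motif CATTCC, then the GATA motif GATAA, the AP-2 motif GCCNNNGGC and the E-box CANNTG, which Hand1 and Ascl2 dimers bind in variant forms, and lastly the ETS motif CCGGAAG and the nuclear receptor motif AGGTCA. Over 32817 windows of the same length, TEAD matches were in 12.6%, GATA in 22.6%, AP-2 in 13.7%, E-boxes in 66.2%, ETS in 6.90% and the nuclear receptor motif in 14.0%. The windows of Gata2, Gata3 and Elf5 are printed 5′ to 3′ on the gene's strand, with matches in capitals.
Gata2 window 1, chr6:88193641-88193890, plus strand: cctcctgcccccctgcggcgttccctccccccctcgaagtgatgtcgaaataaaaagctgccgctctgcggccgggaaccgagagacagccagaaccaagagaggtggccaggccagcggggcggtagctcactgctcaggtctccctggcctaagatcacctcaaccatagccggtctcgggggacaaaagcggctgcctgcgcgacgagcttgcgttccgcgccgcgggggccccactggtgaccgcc
Gata2 window 2, chr6:88198414-88198663, plus strand: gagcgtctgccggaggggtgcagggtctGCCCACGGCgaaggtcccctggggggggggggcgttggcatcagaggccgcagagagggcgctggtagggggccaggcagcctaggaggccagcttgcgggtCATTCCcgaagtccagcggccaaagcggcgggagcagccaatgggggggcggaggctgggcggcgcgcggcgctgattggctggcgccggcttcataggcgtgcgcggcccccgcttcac
Gata3, chr2:9878601-9878850, minus strand: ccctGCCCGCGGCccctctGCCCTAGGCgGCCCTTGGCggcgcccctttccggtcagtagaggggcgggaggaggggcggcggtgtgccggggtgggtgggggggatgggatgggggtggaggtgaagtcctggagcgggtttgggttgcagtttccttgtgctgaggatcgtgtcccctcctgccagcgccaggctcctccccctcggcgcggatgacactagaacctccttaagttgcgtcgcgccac
Elf5 window 1, chr2:103411848-103412097, plus strand: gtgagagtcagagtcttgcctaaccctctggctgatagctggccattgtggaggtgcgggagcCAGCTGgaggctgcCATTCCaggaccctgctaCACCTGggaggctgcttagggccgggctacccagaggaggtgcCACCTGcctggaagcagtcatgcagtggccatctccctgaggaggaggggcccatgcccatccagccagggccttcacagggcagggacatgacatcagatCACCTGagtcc
Elf5 window 2, chr2:103423818-103424067, plus strand: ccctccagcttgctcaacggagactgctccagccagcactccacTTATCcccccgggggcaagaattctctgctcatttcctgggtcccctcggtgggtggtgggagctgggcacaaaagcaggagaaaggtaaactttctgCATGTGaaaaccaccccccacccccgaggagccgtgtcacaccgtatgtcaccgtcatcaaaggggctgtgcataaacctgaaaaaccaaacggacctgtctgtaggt

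The Gata3 window held 3 AP-2 matches, which began 246, 231 and 221 bases before the start, and no match to the other 5 motifs. Gata2 had an AP-2 match 222 bases and a TEAD match 120 bases before its second listed start, and none in the other window. Elf5 had a TEAD match 173 bases before 1 start and 4 E-boxes, at 187, 155, 112 and 11 bases, and before the other start a GATA match at 206 and an E-box at 108 bases. The Ascl2 window held 2 E-boxes, at 249 and 98 bases, and the 2 Tfap2a windows held no match. CpG content, as the ratio of observed to expected CpG, separated Elf5 from Gata2 and Gata3: it was 0.0814 and 0.402 in the Elf5 windows, 0.785 and 0.741 for Gata2 and 0.633 for Gata3, with a median of 0.373 and quartiles of 0.167 and 0.723 over all windows. The AP-2 motif names only G and C, and the windows with a match to it were rich in both: 70% in Gata3 and 74% in the second Gata2 window. The shares over all windows were not matched for GC content. A match is a description of letters, and binding was not measured.

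**Figure D3:**
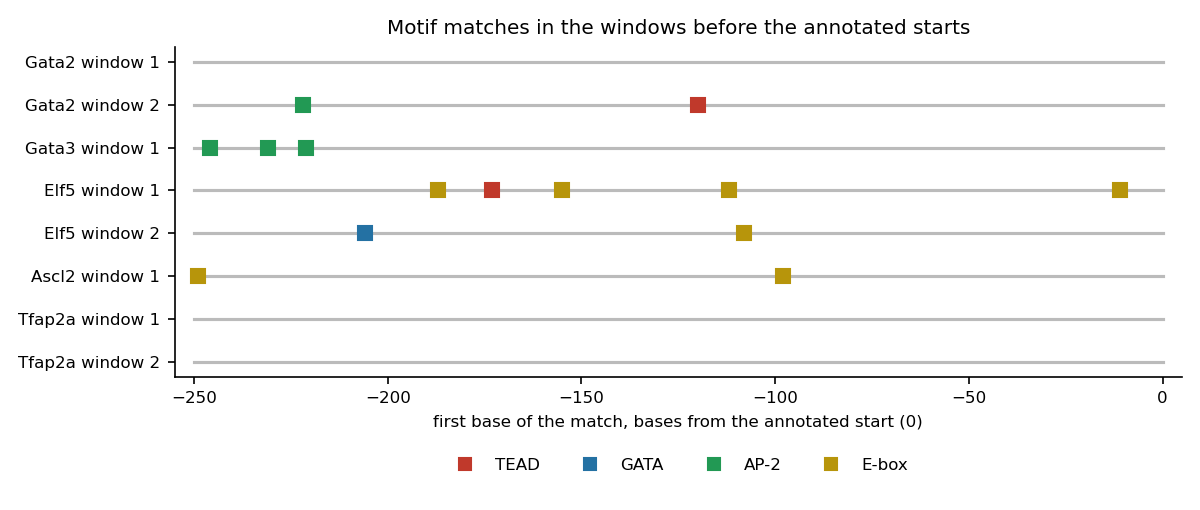
Position of each motif match in the 8 RefSeq windows of 5 genes, as the first base of the match in bases before the annotated start (0 at the right). The 3 AP-2 matches of Gata3 lie at the far end of its window, and the first Gata2 window and both Tfap2a windows are empty.

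After RA, the shMed12 cells again held more Hand1, Gata2 and Gata3 than shNMC cells, and here also more Tead4 and less Tfap2c. Of the 7 members other than Elf5, 4 were called higher and 1 lower (edgeR). The background was 21.3% higher and 20.6% lower. Hand1 stood at 0.679, 0.603 and 0.577 CPM with shNMC and at 9.84, 11.1 and 9.13 CPM with shMed12 (log2 change 4.01, SE 0.26, edgeR adjusted p = 1.42e-10). Gata2 was at its highest in these data, at 28.3, 30.1 and 24.0 CPM against 4.29, 4.17 and 2.91 CPM (2.86, SE 0.24, edgeR adjusted p = 6.93e-09). Neither gene had overlapping groups.

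Gata3 stood at 2.77, 2.72 and 1.12 CPM in the RA shNMC libraries and at 10.6, 9.80 and 9.49 CPM with shMed12 (log2 change 2.18, SE 0.45, edgeR adjusted p = 0.000524). RA shNMC replicate 3 was the low library here. Left out, the change was 1.83 (edgeR adjusted p = 0.00574). Elf5 had 5, 5 and 3 counts against 12, 19 and 17, without overlap, and the fit with no filter on low counts gave a log2 change of 1.85 (edgeR adjusted p = 0.00467).

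After RA Tead4, the DNA-binding partner of the Hippo coactivators, stood at 6.36, 6.78 and 11.3 CPM with shNMC, at 18.2, 21.1 and 21.4 CPM with shMed12 and at 6.60, 6.50 and 8.05 CPM with shCdk8. The shMed12 libraries lay above the other 6, and those 6 overlapped (shMed12 against shNMC 1.31, SE 0.23, edgeR adjusted p = 8.29e-05). Tfap2c went the other way, at 66.7, 71.7 and 70.2 CPM with shNMC and 46.4, 55.9 and 50.5 CPM with shMed12. Its fall of 0.45 on the log2 scale (SE 0.17, edgeR adjusted p = 0.0395) lost its call without any 1 of the 3 RA shNMC libraries or without RA shMed12 replicate 1 or 3 (edgeR adjusted p from 0.0593 to 0.112). Tfap2a and Ascl2 were not called, at -0.01 (SE 0.24) and -0.37 (SE 0.33).

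With shCdk8 in mESCs, no member was called in either direction (edgeR, 0 of 7), and the background was 2.24% higher and 1.42% lower. DESeq2 also called 0. Gata3 alone passed at an unadjusted p under 0.05. Hand1 (0.193, 0.213 and 0.415 CPM) and Gata2 (0.966, 0.851 and 0.812 CPM) overlapped with shNMC. Gata3, at 0.828, 0.979 and 0.776 CPM, lay above all 3 shNMC libraries (log2 change 1.33, SE 0.57, edgeR adjusted p = 0.213). That call was made when the fit held only the 18 libraries of the shNMC, shMed12 and shCdk8 lines (1.32, edgeR adjusted p = 0.02) or only the 2 groups compared (1.33, edgeR adjusted p = 0.00979). After RA, shCdk8 went with lower Tfap2c, at 39.5, 39.6 and 47.7 CPM, and with no other called member (1 lower, 0 higher of 7, against 4.10% higher and 3.64% lower of all genes). That fall was 0.72 on the log2 scale (SE 0.17, edgeR adjusted p = 0.0122). It lost its call without RA shCdk8 replicate 1 (-0.67, edgeR adjusted p = 0.0582) or replicate 2 (-0.67, edgeR adjusted p = 0.0713). In the same comparison 7 of the 8 embryonic stem cell markers were called lower and 0 higher, with sums of 1594 to 1998 CPM against 2255 to 2705 CPM. With shMed12 against shNMC 7 were likewise lower and 0 higher in each state. All genes called lower there were 19.9% in mESCs and 20.6% after RA. The part of these markers in the result was not tested.

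After RA, Hand1 stood at 0.298, 0.464 and 0.372 CPM with shCdk8, below all 3 shNMC libraries, with a log2 change of -0.71 (SE 0.29) that was not called (edgeR adjusted p = 0.14). Ascl2 was at its lowest there, at 1.52, 1.59 and 1.51 CPM, also below every shNMC library (-0.71, SE 0.33, edgeR adjusted p = 0.203). That difference was called with the 18 libraries alone (-0.71, edgeR adjusted p = 0.00321) or the 2 groups alone (-0.71, edgeR adjusted p = 0.0114). Tfap2a at 3.26, 3.4 and 2.02 CPM overlapped with shNMC (5.13, 5.20 and 2.79 CPM), since replicate 3 was low in both groups, and its change of -0.59 was not called. Without RA shNMC replicate 3 it was -0.84 and called (edgeR adjusted p = 0.0377). That fit kept the low shCdk8 replicate 3, although same-numbered libraries of these groups deviated together.

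Set directly against shCdk8, the shMed12 cells held more Hand1, Gata2, Gata3 and Tead4 in both states. In mESCs 4 of the 7 were called higher and 0 lower, with 18.4% and 17.4% of all genes called, and after RA again 4 and 0, with 21.3% and 20.1%. The log2 differences in mESCs were 5.89 (SE 0.29) for Hand1, 3.14 (SE 0.27) for Gata2, 3.0 (SE 0.49) for Gata3 and 0.71 (SE 0.22, edgeR adjusted p = 0.0152) for Tead4. The Tead4 call was lost without shCdk8 replicate 1 (0.58, edgeR adjusted p = 0.0808) or replicate 2 (0.64, edgeR adjusted p = 0.0633). After RA they were 4.71 (SE 0.27), 2.66 (SE 0.24), 2.0 (SE 0.44) and 1.52 (SE 0.23) in the same order. Tfap2a was 0.58 higher (SE 0.24, edgeR adjusted p = 0.0548) and passed without RA shMed12 replicate 3 (0.72, edgeR adjusted p = 0.035). Elf5 had 50 counts over the shMed12 mESC libraries and 4 over the shCdk8 ones.

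Ring1b is the catalytic core of Polycomb repressive complex 1, and several members are known as Polycomb targets in embryonic stem cells. With shRing1b, Hand1, Gata2 and Gata3 were called higher than in untransfected cells and no member lower (edgeR, 3 and 0 of 7, against 9.68% and 5.42% of all genes). Without replicate 3 the count was again 3 and 0, against 14.0% and 9.71%. Hand1 stood at 1.89, 0.941 and 1.28 CPM against 0.260, 0.319 and 0.223 CPM, without overlap, and its log2 change was 2.35 (SE 0.34, edgeR adjusted p = 0.000113). Without replicate 3, the library with little fall of Rnf2, it was 2.41 (edgeR adjusted p = 6.89e-05). Hand1 in replicate 3 (1.28 CPM) lay above replicate 2 (0.941 CPM), whose Rnf2 was lower, so Hand1 did not follow Rnf2 across these libraries. The Hand1 levels with shRing1b lay above those of RA shNMC cells and below both shMed12 groups. Those groups belong to the other library set, so group and set cannot be told apart, and no such difference was tested. Markers of other cells moved with this group. All 6 markers of 2-cell-like cells were called higher with all 3 libraries and without replicate 3, and they summed to 49.6 to 249 CPM against 17.5 to 26.7 CPM. Of 10 tested trophoblast markers 5 were called higher and 0 lower in both fits (89.3 to 165 CPM against 62.6 to 70.7 CPM). Of 7 fibroblast markers 3 were higher, and 4 without replicate 3 (16.7 to 32.6 CPM against 10.3 to 17.04 CPM). Of 9 primitive endoderm markers 2 were higher, and all 9 without replicate 3. Their part in the results was not tested.

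Gata3 was uneven, at 1.82, 4.78 and 0.416 CPM with shRing1b and 0.260, 0.599 and 0.334 CPM without it, so replicate 3 fell inside the untransfected range. The log2 change was 2.54 (SE 0.59, edgeR adjusted p = 0.00629), 3.06 without replicate 3 (edgeR adjusted p = 3.55e-05) and 1.47 without replicate 2 (edgeR adjusted p = 0.0673). Replicate 2 was also the library with the most primitive endoderm marker RNA, a list that summed to 270 to 3583 CPM in this group and 439 to 674 CPM in untransfected cells. Its part in the result was not tested. Gata2, at 2.46, 2.10 and 1.13 CPM against 1.26, 0.838 and 0.669 CPM, was 1.03 higher (SE 0.30, edgeR adjusted p = 0.0227) and 1.3 without replicate 3 (edgeR adjusted p = 0.00208). Its call was lost without untransfected replicate 2 (0.96, edgeR adjusted p = 0.0713) or 3 (0.84, edgeR adjusted p = 0.118), or without shRing1b replicate 1 (0.79, edgeR adjusted p = 0.1) or 2 (0.94, edgeR adjusted p = 0.0619).

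Elf5 had 11, 5 and 7 counts with shRing1b and 1, 3 and 1 in untransfected cells. It entered the fit through the shMed12 groups, so these counts are a description. The fitted log2 change was 1.95 (SE 0.64), and 2.09 without replicate 3. The change was 1.69 without untransfected replicate 1, 1.68 without untransfected replicate 3 and 1.58 without shRing1b replicate 1. A fit with no filter on low counts gave 1.95 (edgeR adjusted p = 0.0556). Ascl2 stood at 3.30, 2.75 and 10.4 CPM against 3.56, 2.23 and 2.64 CPM. The library labelled shRing1b replicate 3 alone was high, and the log2 change of 0.97 (SE 0.33, edgeR adjusted p = 0.0521) became 0.11 without it (edgeR adjusted p = 0.766). It passed without untransfected replicate 1 (1.2, edgeR adjusted p = 0.0406), shRing1b replicate 1 (1.23, edgeR adjusted p = 0.0159) or shRing1b replicate 2 (1.29, edgeR adjusted p = 0.0076). Tfap2a (0.45, SE 0.25), Tfap2c (-0.06, SE 0.17) and Tead4 (-0.19, SE 0.22) were not called. Without replicate 3 they were not called either, at 0.37, -0.08 and 0.05 in the same order, so that the sign for Tead4 changed (edgeR adjusted p from 0.368 to 0.906). When only these 2 groups were fitted, 0 of the 7 members and 0 genes in all passed (Hand1 2.36, edgeR adjusted p = 0.154).

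The control hairpin itself moved none of the 8 genes past the threshold. Against untransfected cells 0 of the 7 members were called (edgeR), with 0.00614% of all genes higher and 0% lower, and 0 of the 7 passed at an unadjusted p under 0.05 or with DESeq2. Their log2 changes lay between -0.21 (Gata3, SE 0.68) and 0.20 (Tfap2c, SE 0.17), and Elf5 had 5 counts in each group. This comparison runs across the library sets that differ in reads with several alignments, so hairpin and set cannot be told apart.

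RA without LIF raised Gata2, Gata3 and Hand1 and lowered Tead4 in shNMC cells. Of the 7 members 3 were called higher and 1 lower (edgeR), against 27.3% higher and 24.1% lower of all genes. Gata2 rose from 1.06, 0.669 and 0.737 CPM to 4.29, 4.17 and 2.91 CPM (log2 change 2.20, SE 0.27, edgeR adjusted p = 7.26e-07), and Gata3 from 0.311, 0.472 and 0.221 CPM to 2.77, 2.72 and 1.12 CPM (2.69, SE 0.54, edgeR adjusted p = 0.000281). Hand1 rose by 1.28 (SE 0.32, edgeR adjusted p = 0.00185), to 0.577 to 0.679 CPM. Tead4 fell from 23.9 to 29.4 CPM down to 6.36 to 11.3 CPM (-1.73, SE 0.23, edgeR adjusted p = 2.36e-06). In each of these 4 genes the mESC and RA libraries did not overlap.

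In the same shNMC comparison Tfap2c (-0.02, SE 0.17), Ascl2 (-0.12, SE 0.33) and Tfap2a (0.48, SE 0.24, edgeR adjusted p = 0.102) were not called. RA replicate 3 held the lowest Tfap2a and Gata3 and the highest Tead4 of its group. Without it, Tfap2a passed (0.75, edgeR adjusted p = 0.0117), Gata3 changed by 3.04 and Tead4 by -2.0. Elf5 gave 5 counts over the shNMC mESC libraries and 13 after RA.

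In shMed12 cells the response to RA differed by member. Gata2 rose further, from 5.84 to 9.03 CPM up to 24.0 to 30.1 CPM (1.84, SE 0.23, edgeR adjusted p = 3.25e-06). Hand1 fell by 0.76 (SE 0.22, edgeR adjusted p = 0.00891), from 14.9 to 18.8 CPM down to 9.13 to 11.1 CPM, and Tead4 fell by 0.75 (SE 0.22, edgeR adjusted p = 0.0104). Tfap2c fell by 0.51 (SE 0.17, edgeR adjusted p = 0.0228), a call lost without mESC shMed12 replicate 1 or 3 or RA shMed12 replicate 1 or 3 (edgeR adjusted p from 0.0507 to 0.0787). Gata3 changed by 0.52 (SE 0.43, edgeR adjusted p = 0.35), although its RA libraries lay above its mESC libraries, and it passed in the fits of fewer groups (0.53, edgeR adjusted p = 0.0455, over 18 libraries, and 0.52, edgeR adjusted p = 0.0024, over these 2 groups). In all, 1 of the 7 was called higher and 3 lower, against 19.6% and 17.5% of all genes.

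In shCdk8 cells RA went with higher Gata2 (2.31, SE 0.26) and Gata3 (1.53, SE 0.48, edgeR adjusted p = 0.011) and lower Tead4 (-1.56, SE 0.23) and Tfap2c (-0.50, SE 0.17, edgeR adjusted p = 0.0184), 2 higher and 2 lower of the 7 members beside 26.7% and 25.1% of all genes. The Tfap2c call was lost without mESC shCdk8 replicate 2 or 3 or RA shCdk8 replicate 1 or 2 (edgeR adjusted p from 0.0609 to 0.0722). Hand1 changed by 0.42 (SE 0.32, edgeR adjusted p = 0.292), and by 0.91 without mESC shCdk8 replicate 3 (edgeR adjusted p = 0.0499).

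**Figure D4:**
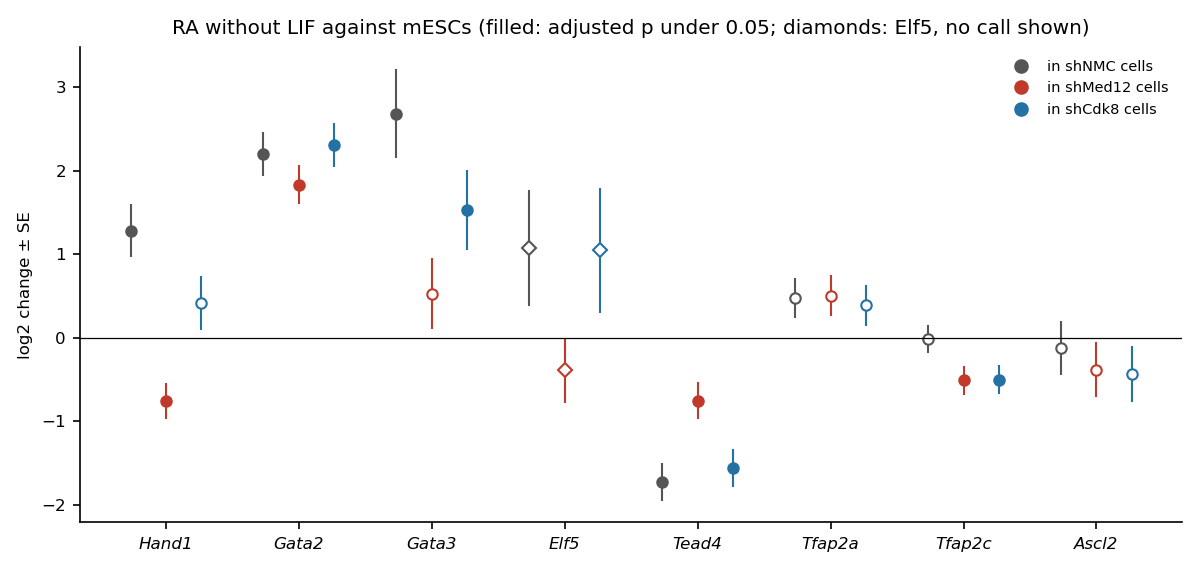
Log2 change from mESCs to RA without LIF, with its standard error, in shNMC, shMed12 and shCdk8 cells; filled circles have an edgeR adjusted p under 0.05, and Elf5 is drawn as open diamonds with no call shown. Gata2 is filled above 0 and Tead4 below 0 in all 3 lines, while Hand1 is at 1.28 in shNMC and at -0.76 in shMed12 cells.

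The difference between lines in the response to RA was tested as an interaction term. For shMed12, Hand1 was the member called: its effect of shMed12 was 2.04 smaller on the log2 scale after RA than in mESCs (-2.04, SE 0.38, edgeR adjusted p = 0.00238). That is 1 lower and 0 higher of 7, against 1.74% higher and 3.30% lower of all genes. The value lay between -2.41 and -1.80 without 1 library and was called each time. Gata3 (-2.16, SE 0.69, edgeR adjusted p = 0.0754) and Tead4 (0.97, SE 0.31, edgeR adjusted p = 0.0804) did not pass, and Gata2 was at -0.37 (SE 0.35). Without RA shNMC replicate 3 both passed (Gata3 -2.53, edgeR adjusted p = 0.0329; Tead4 1.24, edgeR adjusted p = 0.018). DESeq2 called both as well, Gata3 at -2.18 (adjusted p = 0.0279) and Tead4 at 0.97 (adjusted p = 0.0385). For shCdk8, 0 of the 7 members were called (edgeR, and 0 by DESeq2), with 0.0307% higher and 0.00614% lower of all genes, and 0 of the 7 passed at an unadjusted p under 0.05. Values ranged from -1.15 (SE 0.72) for Gata3 to 0.16 (SE 0.32) for Tead4.

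The 8 genes fell into unlike patterns over the 24 libraries. As a description of log2 CPM over all libraries, which share groups, Pearson's r was 0.91 between Gata2 and Gata3, 0.90 between Hand1 and Elf5, 0.81 between Hand1 and Gata2 and 0.80 between Hand1 and Gata3. Tead4 had r of 0.30 with Hand1, -0.19 with Gata2 and -0.13 with Gata3. Tfap2c and Ascl2 were at 0.43, and at 0.80 over the 18 libraries of the shNMC, shMed12 and shCdk8 lines.

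Among 13425 genes with a mean of at least 1 CPM, those most like each member over 24 libraries were found by the same measure. Hand1 was followed most closely by Fosl2 (r 0.98), Wnt7a (0.98) and Bmp8b (0.97), and Gata2 by Wnt9a, Bin1 and Gprc5c (0.97 each). Gata3 was closest to Lats2 and Cyr61, both of the Hippo pathway list below (0.97 each), and S1pr1 (0.96). Elf5 was closest to Nrk (0.90), Ap1s3 (0.90) and Tdpoz3 (0.89), and Tead4 to Usp10, Ikbkap (0.97 each) and Zfp593 (0.96). The other members had looser neighbours: Ascl2 had Sdcbp2 (0.87), D9Ertd402e (0.85) and Mad2l2 (0.84), Tfap2c had Ccdc112 (0.82), Zfp444 and Wbp2 (0.77 each), and Tfap2a had Spz1, Dcc and Lipt2 (0.79 each). Over the 18 libraries Wnt7a for Hand1, Wnt9a for Gata2, Cyr61 for Gata3 and Ikbkap for Tead4 were again among the 3 closest, and none of those named for Tfap2a, Tfap2c, Elf5 or Ascl2 was.

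Tead4 acts through the Hippo pathway: the coactivators Yap1 and Wwtr1 bind Tead factors, and the kinases Lats1 and Lats2 keep them out of the nucleus. Of 23 genes of this pathway in the files, 22 were tested, and with shMed12 in mESCs 13 were called higher and 2 lower (edgeR, against 20.6% and 19.9% of all genes), with a median log2 change of 1.37 beside -0.01 over all genes. Vgll3, a Tead cofactor, rose from 2.57 ± 0.67 to 31.2 ± 3.9 CPM (mean ± SD, n = 3; 3.60, SE 0.27, edgeR adjusted p = 8.93e-10). Amotl1, an angiomotin that binds Yap1, rose from 41.2 to 139 CPM (1.75, SE 0.16, edgeR adjusted p = 1.5e-08). Tead1, a paralog of Tead4, rose from 281 to 558 CPM (0.99, SE 0.09, edgeR adjusted p = 2.32e-08). After RA 12 were called higher and 3 lower (background 21.3% and 20.6%; median 0.52), Vgll3 by 3.55, Amotl1 by 1.28 and the cofactor Vgll4 by 1.38. RA in shNMC cells gave 10 higher and 2 lower, against 27.3% and 24.1% of all genes: Nf2, the upstream tumour suppressor, fell by 1.09, the kinase gene Stk4 fell by 0.45, and Tead3 rose by 1.18. With shCdk8 in mESCs 1 was higher and 1 lower (background 2.24% and 1.42%). With shRing1b 5 were higher and 3 lower (background 9.68% and 5.42%), and again 5 and 3 without replicate 3 (14.0% and 9.71%).

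The same background shares hold for each comparison in the lists that follow. Of 30 other regulators of trophoblast, all tested, 19 were called higher and 4 lower with shMed12 in mESCs (20.6% and 19.9% of all genes; median 1.40) and 18 and 4 after RA (21.3% and 20.6%; median 0.94). Gcm1, the factor of labyrinth syncytiotrophoblast, rose from 0.303 to 8.75 CPM in mESCs (4.85, SE 0.32, edgeR adjusted p = 1.07e-10) and from 1.03 to 26.4 CPM after RA (4.68, SE 0.28). Cdx2, which works with Tead4 in the trophectoderm, rose from 0.152 ± 0.078 to 5.56 ± 2.7 CPM in mESCs (5.18, SE 0.53, edgeR adjusted p = 7.85e-08). The DNA-binding factor Arid3a rose by 1.61 in mESCs and 1.70 after RA, and Grhl2, an epithelial factor, by 2.42 after RA. Esrrb, also an embryonic stem cell marker, was among the 4 lower in mESCs. It fell there from 1088 to 418 CPM (-1.38, SE 0.21, edgeR adjusted p = 1.4e-05) and by 1.74 after RA (SE 0.21). The summed level of the 30 genes was 2038 to 2187 CPM with shNMC and 1670 to 1688 CPM with shMed12 in mESCs. RA in shNMC cells gave 13 higher and 9 lower (27.3% and 24.1% of all genes). Klf5, shared by pluripotent cells and trophectoderm, then fell from 194 to 37.5 CPM (-2.37), Tfeb by 1.84 and Grhl2 by 1.71. With shCdk8 in mESCs 0 of the 30 were called (edgeR), and with shRing1b 7 were higher and 1 lower, or 9 and 2 without replicate 3.

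Of 33 genes of differentiated trophoblast and its epithelium in the files, 26 were tested. With shMed12 in mESCs 16 were higher and 4 lower (20.6% and 19.9% of all genes; median 1.12), and after RA 19 and 6 (21.3% and 20.6%; median 1.98). The simple-epithelial keratin Krt18 rose from 11.2 ± 1.9 to 388 ± 52 CPM in mESCs (5.11, SE 0.29, edgeR adjusted p = 1.75e-11) and from 20.4 to 484 CPM after RA (4.57, SE 0.28). Krt19 rose by 4.35 and the signal Wnt7b by 4.45 in mESCs, and the tight junction gene Cldn6 by 3.32 after RA. RA in shNMC cells gave 9 higher and 11 lower (27.3% and 24.1% of all genes), with the sodium pump subunit Atp1b1 (-1.26) lower and the water channel Aqp3 (2.40) higher. Of the placental genes listed, Tpbpa, Prl2c2 and Prl3b1 had 0 counts in every library, and Prl3d1 had 1 count in 1 mESC shMed12 library. Ctsj, Ctsq and Synb had 0 counts in shNMC mESCs but not in shMed12 mESCs. Synb also had counts in shCdk8 mESCs, and Ctsq and Synb had counts in shRing1b mESCs and in every RA group. Only the presence of a count is described for these genes. After RA, Ctsj had 0 counts in all 3 groups.

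Of 19 paralogs of the 8 factors 16 were tested, and 7 were higher and 2 lower with shMed12 in mESCs (20.6% and 19.9% of all genes; median 0.17). After RA there were likewise 7 and 2 (21.3% and 20.6%; median 0.15). Tead3 rose by 1.96 and Tfap2e, an AP-2 paralog, by 1.68 in mESCs, and after RA Tead3 rose by 1.54 and Gata5 by 1.47. RA in shNMC cells gave 7 higher and 1 lower (27.3% and 24.1% of all genes), Gata5 (4.79) and Elf3 (0.93) among the higher. The Tead paralogs stand in both this list and that of the Hippo pathway.

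**Figure D5:**
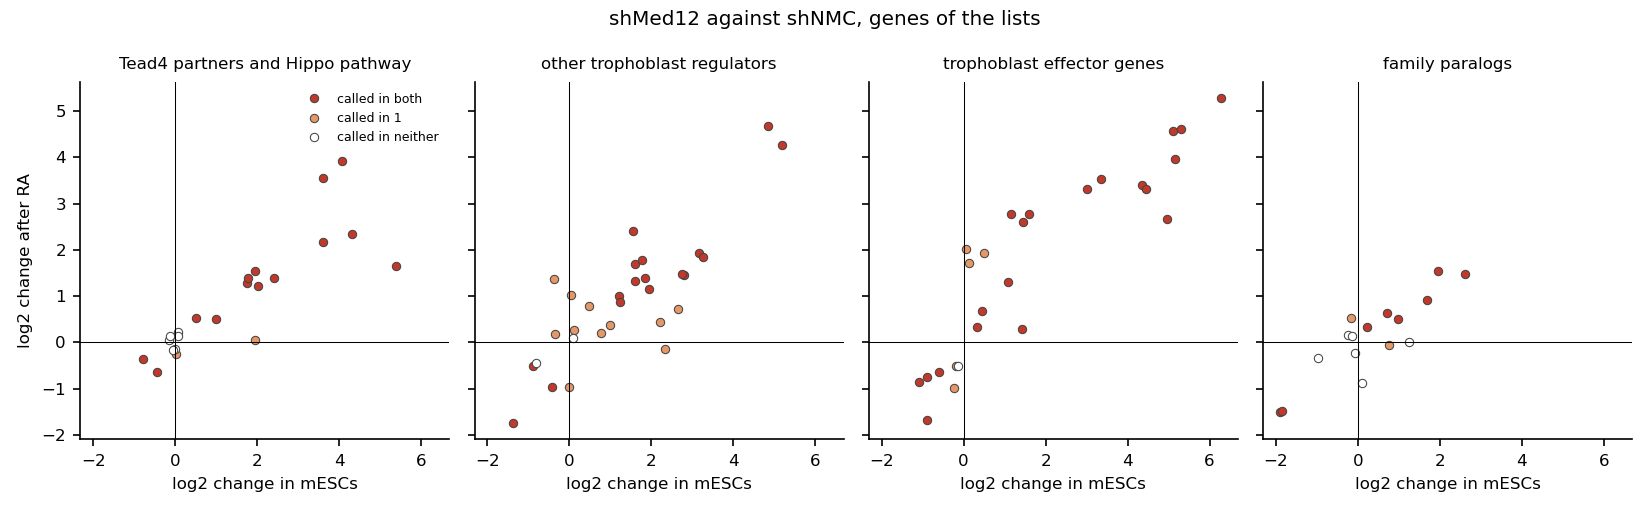
Log2 change with shMed12 against shNMC in mESCs (horizontal) and after RA (vertical) for the tested genes of the 4 lists; red points have an edgeR adjusted p under 0.05 in both states, orange in 1 and white in neither. Points spread along the upper right. In mESCs 13 of 22 Hippo pathway genes were called higher and 2 lower, and 7 of 16 paralogs higher and 2 lower. Of all genes 20.6% were called higher and 19.9% lower.

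Markers of several cell types moved with shMed12 beside these genes, and their part in the results was not tested. In mESCs the 12 trophoblast markers, of which 10 were tested, summed to 64.2 to 68.2 CPM with shNMC and 658 to 839 CPM with shMed12 (9 higher and 1 lower), with Tpbpa at 0. They overlap the lists above and hold no member. The 7 fibroblast markers summed to 10.6 to 11.5 CPM with shNMC and 337 to 382 CPM with shMed12 in mESCs, and to 11.6 to 13.4 and 310 to 346 CPM after RA, with 6 called higher and 1 lower in each state. Named after their values were seen, Tagln, a smooth muscle and fibroblast gene, had a mean of 273 CPM with shMed12 in mESCs, Col1a1 had 10.1 CPM and Thy1 was lower (-1.09). Primitive streak and mesoderm markers summed to 3.32 to 3.81 CPM with shNMC and 10.8 to 33.0 CPM with shMed12 (4 of 8 higher, 0 lower), and non-neural ectoderm markers to 60.4 to 68.8 and 135 to 146 CPM (4 of 9 higher, 0 lower). Markers of 2-cell-like cells summed to 16.6 to 27.8 and 49.0 to 90.4 CPM (6 of 6 higher), and primitive endoderm markers to 344 to 413 and 221 to 251 CPM (4 of 9 lower, 0 higher).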

How the data were processed

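RNA was polyA-selected and sequenced strand-specifically in 50 bp reads, per the labels' protocols. The authors deposited raw read counts per gene symbol for each library. The submitters' processing notes name bcl2fastq 1.8.4, STAR 2.3.1z13, SAMtools 1.2, HTSeq 0.6.1p1, DESeq2 1.6.3 and the build mm9, without their roles. Neither an annotation nor a strand setting for HTSeq is named there, so reads of overlapping antisense genes cannot be told apart. The 5 entries that name no gene were left out of library sizes and tests.

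Counts were fitted in R 4.3.3 with edgeR 4.0.16 (quasi-likelihood, TMM, 1 mean per group over 24 libraries), after a filter at 0.204 CPM in at least 3 libraries that kept 16280 of 19916 genes with a count. A call is a Benjamini-Hochberg adjusted p under 0.05 over those genes, and SE is the log2 change divided by the root of F. The procedure was tested on simulated data. Alternatives were median-ratio size factors, DESeq2 1.42.0, no filter, fewer libraries, a replicate block, other controls and leaving out each library. The list counts without shRing1b replicate 3 were added after seeing the data.

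Genes named are the 8 members, the hairpin targets, up to 3 genes of lowest p per list in 3 comparisons, and the 3 genes most like each member. Placental genes with 0 counts in at least 1 group are named too, and Esrrb was named after its values were seen. Some genes that this rule selects are not reported here. The members and lists were chosen with earlier results of these data known. Same-numbered libraries deviated together (r over 0.1 for all 3 numbers) in 3 of the pairs of groups compared: RA shCdk8 and RA shNMC (0.475, 0.287 and 0.537), mESC shMed12 and shCdk8 (0.195, 0.157 and 0.339), and shCdk8 with and without RA (0.358, 0.169 and 0.371). That pairing comes from the data, not from the labels.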

Additional observations from a re-analysis of the deposited data

Results flagged for a closer look

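The effect of shMed12 on Hand1 differed between the 2 states by a test of the difference itself. Against shNMC it was 6.05 (SE 0.30) on the log2 scale in mESCs and 4.01 (SE 0.26) after RA without LIF, an interaction of -2.04 (SE 0.38, edgeR adjusted p = 0.00238). All 3 shMed12 libraries lay above all 3 shNMC libraries in each state.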

How the results depend on the processing

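Over 1343 combinations of a member's log2 change and an alternative, 1273 stayed on the same side of the threshold, 30 lost a call, 40 gained one and 0 reversed a called change. In 54 of them a change called in neither setting changed sign (values from -0.31 to 1.06, lowest adjusted p 0.201). Of 169 counts of members called, 156 stayed within 1.5 times.

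With only the 18 libraries of the shNMC, shMed12 and shCdk8 lines, members called were 1 for shCdk8 in mESCs, 2 for shCdk8 after RA and 4 for the shMed12 interaction, and with only the groups compared they were 1, 2 and 4, and 0 for shRing1b. The shMed12 interaction gave 2 with the replicate block and 3 with DESeq2. Leaving out 1 library gave 0 to 2 members for shCdk8 after RA and 1 to 3 for the shMed12 interaction.

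Of all genes, 596 were called for shCdk8 in mESCs, against 905 with the replicate block, 992 with untransfected controls, 2645 with the 18 libraries, 2334 with only the groups compared, 1151 with DESeq2 and 170 to 282 without 1 library. For shRing1b 2459 were called, 0 with only the groups compared and 1328 to 3900 without 1 library. For shNMC against untransfected cells it was 1, and 0 with only the groups compared. For shCdk8 after RA 1259 were called, 3760 with the 18 libraries, 2744 with only the groups compared and 482 to 922 without 1 library. The shMed12 interaction gave 820, and 2642, 2237 and 1245 with the 18 libraries, only the groups compared and DESeq2, and 489 to 830 without 1 library. The shCdk8 interaction gave 6, and 11 with the replicate block, 67 with the 18 libraries, 38 with only the groups compared, 27 with DESeq2 and 3 to 6 without 1 library, and its share of higher calls was 83.3%, 72.7% with the block and 66.7% with DESeq2. The causes of these shifts were not tested.

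With the replicate block 2 member calls changed, in groups that share only a number by their labels. They were Tfap2a in shMed12 against shCdk8 after RA (0.60, edgeR adjusted p = 0.0217) and Gata3 in the shMed12 interaction (-2.14, edgeR adjusted p = 0.0289). Of the groups in that interaction, same-numbered libraries of mESC shMed12 and RA shNMC deviated together (r 0.290, 0.158 and 0.373). Elf5 had 4 to 50 counts per group.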
